A study of Mus musculus with 15 samples.

Results

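RANKL and control cells were compared at day 4 of culture, with 2 arrays in each group, or 4 of the 15 arrays of the series. The cells were RAW264.7, a mouse macrophage-like line that forms osteoclasts when given RANKL. They were grown in alpha-MEM with 10% FBS, and at day 0 and again at day 3 they received serum-free alpha-MEM that held RANKL or did not. The RANKL group at day 4 is described as multi-nuclear by its labels and the control group at day 4 as mononuclear. Total RNA was extracted with an RNeasy kit, labelled with biotin and hybridised to Affymetrix arrays, 1 sample on each array. Both groups are the same cell line, so they carry no stromal or bone-derived cells that would supply RANKL in the body. Whether replicates came from separate cultures is not stated, and the p-values may then measure technical spread.

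RANKL is a cytokine of the TNF family that bone-forming and immune cells present to osteoclast precursors. It binds the receptor RANK, which activates NF-kB, AP-1 and, with a calcium signal from ITAM-bearing co-receptors, the transcription factor NFATc1. NFATc1 then drives the genes that let osteoclasts fuse, attach to bone, acidify the space beneath them and digest the matrix.

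After 4 days, RANKL cells held far more RNA of the resorption enzymes Acp5 and Ctsk and of the transcription factors Nfatc1 and Egr2. The same held for the pyrophosphate transporter Ank, the phosphate exporter Xpr1, the chemokine receptor Ccr1 and several genes of adhesion and actin. Id3, which blocks DNA binding of its partners, was higher as well, and this result was among the least stable. Values below are the linear signal of a probe set, in intensity units, for replicate 1 and then replicate 2, and changes are RANKL minus control differences of log2(signal + 32) with the standard error of a limma fit (n = 2 and 2). Folds are on this scale as well, and understate changes of dim genes. A gene is represented by 1 probe set, and the threshold was a Benjamini-Hochberg adjusted p of 0.05 over the 12422 probe sets tested. Of 8251 represented genes 24 rose (0.291%) and 3 fell (0.0364%); the 33 probe sets past the threshold (27 higher, 0.217%, and 6 lower, 0.0483%) are 0.266% of those tested, and 8.13% had an unadjusted p under 0.05, 485 higher and 525 lower. In bulk RNA, fewer cells of a type and less RNA per cell cannot be told apart.

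The 4 arrays were alike in brightness, with a median signal of 121.7 to 149.2 and 53.1% to 56.25% of probe sets over 100. The ratio of 3' to 5' beta-actin signal, which rises as RNA degrades, was 1.10 and 1.16 in control cells and 1.18 and 1.34 in RANKL cells, so RANKL replicate 2 had the highest value; its part in the results was not tested. The number of probe sets past the threshold rested on each of the 4 arrays: it was 10 and 9 without control replicate 1 or 2, 9 without RANKL replicate 2 and 54 without RANKL replicate 1, of which 32 were higher and 22 lower. Ank, Ndrg4, Pip5k1b, Acp5, Ctsk, Egr2 and Ccr1 were past it in each of the alternatives run for them, and the other 20 of the 27 genes were not.

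**Figure D1:**
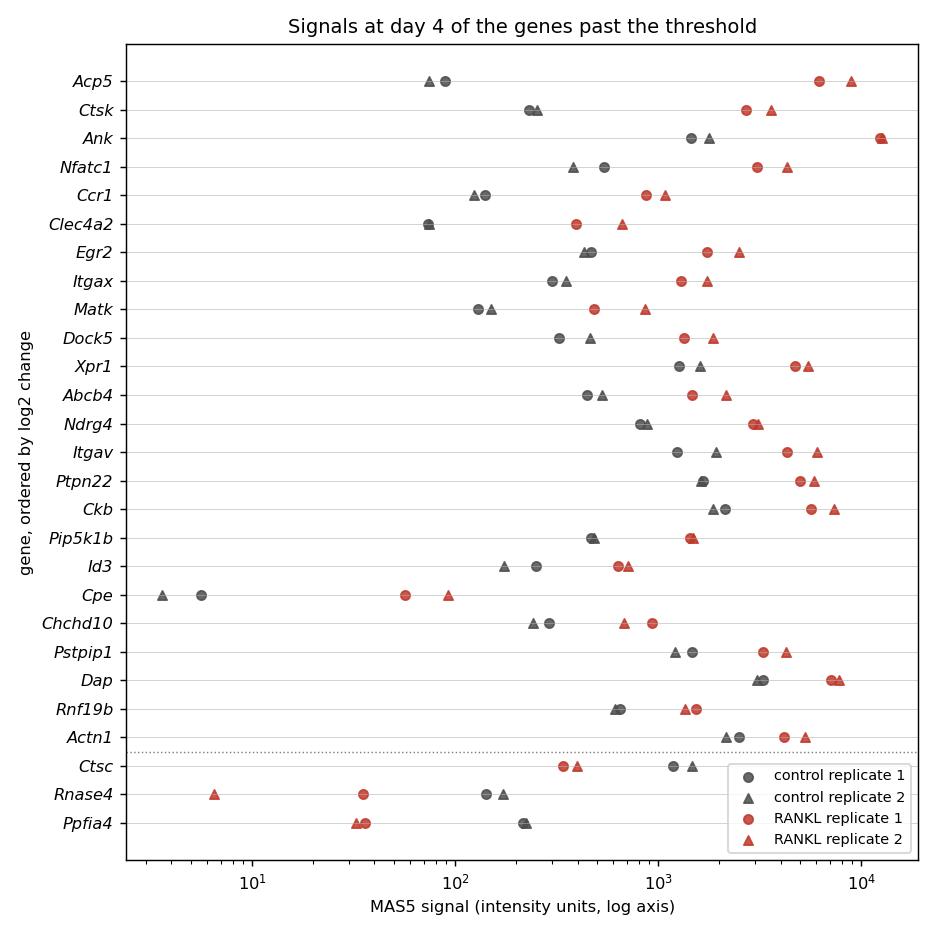
MAS5 signal (intensity units, log axis) of each of the 27 genes past the threshold in the 2 control arrays (grey) and the 2 RANKL arrays (red) of day 4, with circles for replicate 1 and triangles for replicate 2; 24 genes above the dotted line rose and 3 below it fell. Both RANKL values lie on the same side of both control values for each gene, from Acp5 with control signals of 89.4 and 74.1 against 6187 and 8863 down to Actn1 with 2485 and 2153 against 4146 and 5302.

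Acp5, which encodes the tartrate-resistant acid phosphatase used to stain osteoclasts, had signals of 89.4 and 74.1 in control cells and 6187 and 8863 in RANKL cells. This was the largest change on the arrays, 65.5-fold or 6.03 ± 0.36 (adjusted p = 2.88e-05). Ctsk, the protease that cuts bone collagen, went from 230.8 and 252.0 to 2703 and 3585, a change of 3.53 ± 0.26 (adjusted p = 7.72e-05). In both genes the RANKL arrays lay far above either control, and RANKL replicate 2 was the brighter array. Itgav, the alpha v chain of the vitronectin receptor, went from 1239 and 1920 to 4296 and 6045 (1.70 ± 0.23, adjusted p = 0.0116). A dimmer probe set of Itgav had 202.2 and 282.1 against 281.9 and 190.7 (change -0.04), so its probe sets disagree at this day. Ckb, a creatine kinase that regenerates ATP, had 2130 and 1861 in control cells against 5651 and 7333 in RANKL cells (1.68 ± 0.19, adjusted p = 0.0022).

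The 250 bases before RefSeq transcription starts are shown for the 4 largest rises among the 7 genes past the threshold in every alternative. Nfatc1, which rose more than Ccr1, was not past it in every alternative and is not shown. These 4 genes rose together, and the motifs of the factors that RANKL acts through can be looked for in them. Capitals mark matches, on either strand, to GGAAA (the core that NFAT proteins bind), CATGTG (a form of E-box bound by MITF), GAGGAAG (a core of PU.1 sites), CACGTG (the canonical E-box) and TGANTCA (the AP-1 site); these words do not overlap one another in the 4 sequences. Coordinates are of GRCm38.p6, and each sequence is written 5' to 3' on the strand of its gene. Acp5 has 3 starts in this table, and the most downstream, chr9:22130599-22130848 on the minus strand, is given. Of the 3 it is the only start with a match to the E-box bound by MITF. Each of the remaining Acp5 starts has 1 match to the NFAT core, so the matches below are not shared by all Acp5 starts. The other genes are Ctsk at chr3:95498960-95499209 on the plus strand, Ccr1 at chr9:123968693-123968942 on the minus strand and Ank at chr15:27466427-27466676 on the plus strand.
Acp5: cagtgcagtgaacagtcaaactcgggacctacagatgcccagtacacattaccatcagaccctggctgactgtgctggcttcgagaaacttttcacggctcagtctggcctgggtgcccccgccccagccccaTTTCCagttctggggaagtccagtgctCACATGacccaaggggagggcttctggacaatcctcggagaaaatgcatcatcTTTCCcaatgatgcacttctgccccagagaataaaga
Ctsk: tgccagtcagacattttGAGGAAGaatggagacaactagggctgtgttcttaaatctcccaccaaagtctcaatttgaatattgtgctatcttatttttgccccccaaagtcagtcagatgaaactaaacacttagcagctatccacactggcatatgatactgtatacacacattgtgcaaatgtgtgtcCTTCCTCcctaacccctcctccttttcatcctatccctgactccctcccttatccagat
Ccr1: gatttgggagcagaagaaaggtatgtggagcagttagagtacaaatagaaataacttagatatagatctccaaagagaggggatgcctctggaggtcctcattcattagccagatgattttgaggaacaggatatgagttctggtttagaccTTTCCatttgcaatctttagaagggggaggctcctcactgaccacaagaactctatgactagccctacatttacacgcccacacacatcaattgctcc
Ank: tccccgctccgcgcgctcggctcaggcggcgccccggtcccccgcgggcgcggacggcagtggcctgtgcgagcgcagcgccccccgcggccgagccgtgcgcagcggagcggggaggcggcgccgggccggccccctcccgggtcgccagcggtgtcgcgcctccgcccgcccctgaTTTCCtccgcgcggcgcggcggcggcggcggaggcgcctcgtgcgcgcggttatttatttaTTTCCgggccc
The Acp5 stretch holds 2 matches to GGAAA and 1 to CATGTG, Ctsk holds 2 to GAGGAAG and none to GGAAA, Ccr1 holds 1 to GGAAA and Ank holds 2. GGAAA is a common word: it was in 55.57% of the 32851 promoters of the table and in 54.84% of the 31 promoters of the 20 risen genes found there. CATGTG was in 12.25% of all promoters and 19.35% of those 31, GAGGAAG in 10.61% and 16.13%, CACGTG in 6.02% and 6.45%, and TGANTCA in 6.75% and 3.23%. The 31 promoters are starts, several of which can belong to the same gene, so they are not independent. The 6 with CATGTG belong to Acp5, Actn1, Clec4a2 and Egr2, and overlapping Egr2 stretches hold the same match. A match is a run of letters and was not measured as a binding site.

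Among 14 represented genes of bone resorption and acid secretion, 4 rose (Acp5, Ctsk, Itgav and Ckb) and 0 fell, against 0.291% and 0.0364% of represented genes. This list and those below were chosen with earlier results of these data known, so their counts are descriptions and not tests. The RANKL arrays lay above both controls in 11 of 14, against 17.9% of represented genes, and the median change was 1.09, against -0.02 over represented genes. The call of Itgav was lost without control replicate 1 and without RANKL replicate 2, that of Ckb without control replicate 2, and both with the groups of the contrast alone; the highest adjusted p over their alternatives was 0.159 and 0.0581. The remaining members include 3 with an adjusted p just over the threshold. Mmp9, a gelatinase that osteoclasts secrete, had 664.9 and 432.0 against 4576 and 3379 (2.80 ± 0.51, adjusted p = 0.0573), and here RANKL replicate 1 was the brighter array. Car2, the carbonic anhydrase that supplies protons, had 1886 and 1482 against 3830 and 3119 (1.03 ± 0.19, adjusted p = 0.0511). Tcirg1, the a3 subunit of the proton pump of the ruffled border, had 2865 and 2823 against 5355 and 7419 (1.14 ± 0.21, adjusted p = 0.0554). In all 3 genes the groups did not overlap. Slc9b2, a sodium and proton exchanger, was dim at 17.4 and 6.6 against 63.3 and 66.0 (1.15 ± 0.43, adjusted p = 0.484).

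The vacuolar ATPase is the pump that acidifies lysosomes and the resorption space. Of its 15 represented subunits 0 passed the threshold in limma, with 8 higher and 0 lower at an unadjusted p under 0.05, against 4.39% and 4.87% of represented genes. Changes were positive in 12 of 15, against 46.9% of represented genes, with a median of 0.53. After Tcirg1 the largest were Atp6ap2 (693.7 and 956.1 against 1039 and 2092, change 0.83 ± 0.31) and the catalytic subunit Atp6v1a (6792 and 7725 against 10966 and 13303, change 0.73 ± 0.20, adjusted p = 0.275). A second probe set of Atp6v1a, chosen after its values were seen, did pass, with 3071 and 3740 against 6798 and 8026 (1.12 ± 0.18, adjusted p = 0.0286), and another had 1297 and 1530 against 1261 and 1349 (change -0.11). The 35 lysosomal hydrolases and membrane proteins, which share the endosomal route with the pump, had a median of 0.00. They gave 0 rises and 1 fall, that of Ctsc, against 0.291% and 0.0364% of represented genes.

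Ank carries pyrophosphate, an inhibitor of mineral formation, out of the cell. Its signals were 1449 and 1783 in control cells and 12410 and 12694 in RANKL cells, a 7.68-fold difference (2.94 ± 0.19, adjusted p = 2.88e-05). The RANKL arrays differed from each other by 1.02-fold, the smallest gap among the 27 genes. Xpr1, which exports phosphate, went from 1259 and 1611 to 4698 and 5479 (1.81 ± 0.27, adjusted p = 0.0152). Chchd10, a protein of the mitochondrial intermembrane space, went from 290.5 and 242.3 to 927.2 and 679.5 (1.47 ± 0.25, adjusted p = 0.0372), with RANKL replicate 1 the brighter array, and its call was lost in 11 of 23 alternatives. Of 16 represented genes of energy buffering and pyrophosphate handling, Ank, Ckb and Chchd10 rose and 0 fell, against 0.291% and 0.0364% of represented genes. This list too was chosen with earlier results of these data known, so the count is a description and not a test. The list had 8 positive and 8 negative changes, against 46.9% and 53.1%, and a median of -0.02. Other members near the top were the creatine transporter Slc6a8 (263.7 and 202.9 against 414.8 and 563.7, change 0.97 ± 0.33, adjusted p = 0.429) and the adenylate kinase Ak1 (35.1 and 50.6 against 123.5 and 95.0, change 0.92 ± 0.30, adjusted p = 0.398). On the negative side stood Slc20a1, a sodium-phosphate importer, with 1129 and 1193 against 788.8 and 701.7 (-0.62 ± 0.27, adjusted p = 0.597).

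Nfatc1, the factor that osteoclast formation depends on, had 541.2 and 380.4 in control cells and 3075 and 4291 in RANKL cells (2.91 ± 0.37, adjusted p = 0.00731). Its call was lost without control replicate 2 and without RANKL replicate 2, with a highest adjusted p of 0.135. It was the 1 gene of 21 represented osteoclast transcription factors that passed, against 0.291% of represented genes that rose, and 14 of the 21 changes were positive, against 46.9%, with a median of 0.29. Myc, a growth factor-induced regulator, was nearly dark in control cells at 18.4 and 25.1 and had 214.2 and 363.1 in RANKL cells (2.54 ± 0.53, adjusted p = 0.12). Prdm1, which encodes the repressor Blimp1, had 31.7 and 48.5 against 129.4 and 209.9 (1.47 ± 0.32, adjusted p = 0.141). Bhlhe40 had 775.1 and 626.3 against 1133 and 1856 (1.02 ± 0.23, adjusted p = 0.165), and Mitf, which acts on the Acp5 and Ctsk promoters, had 171.5 and 148.5 against 291.5 and 342.2 (0.86 ± 0.25, adjusted p = 0.319). The AP-1 subunit Fos had 3151 and 3971 against 5097 and 7332 (0.78 ± 0.24, adjusted p = 0.354), and a dim probe set of it had the opposite sign (-0.13). In these 5 genes the groups did not overlap, and RANKL replicate 2 was above replicate 1 in each.

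Among 19 represented repressors of osteoclast formation, Egr2 and Id3 rose and 0 fell, against 0.291% and 0.0364% of represented genes. Negative changes numbered 12, against 53.1% of represented genes, and the median was -0.27. Egr2, a zinc-finger factor known to raise Id genes, went from 463.9 and 432.2 to 1732 and 2484 (2.13 ± 0.22, adjusted p = 0.00121). Id3, a helix-loop-helix protein that blocks DNA binding of its partners, went from 248.7 and 174.7 to 635.5 and 712.4 (1.55 ± 0.27, adjusted p = 0.0398). The Id3 call was among the least stable, lost in 14 alternatives. Id2, its close relative, had 147.9 and 156.2 against 394.9 and 675.2 (1.58 ± 0.47, adjusted p = 0.338). Irf8, a macrophage factor that restrains osteoclast formation, had 1667 and 1504 against 1066 and 783.6 (-0.77 ± 0.39, adjusted p = 0.666). The RANKL arrays lay below both controls for Irf8 and for 9 other members (10 of 19, against 21.1% of represented genes and 19.8% of probe sets), among them Irf1 (496.8 and 422.7 against 320.0 and 207.0) and Socs1 (337.9 and 396.4 against 212.8 and 223.5).

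The receptor RANK itself, encoded by Tnfrsf11a, had 285.7 and 327.5 in control cells and 441.9 and 564.6 in RANKL cells (0.65 ± 0.29, adjusted p = 0.609). Of 24 represented genes of RANK and NF-kB signalling 0 passed in limma, with 3 higher and 1 lower at an unadjusted p under 0.05, against 4.39% and 4.87% of represented genes, and the median was 0.18. Of 14 genes of ITAM and calcium signalling 0 passed, with 3 higher and 1 lower on that measure, against the same shares. The largest there was Rcan1, a calcineurin regulator and NFAT target, with 417.4 and 523.8 against 759.9 and 1082 (0.91 ± 0.29, adjusted p = 0.378).

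The next 5 risen genes are grouped here for description, and Clec4a2, Matk and Ptpn22 are in none of the gene lists. Ccr1, a receptor for the chemokines CCL3 and CCL5, went from 139.6 and 123.3 to 867.7 and 1082 (2.62 ± 0.25, adjusted p = 0.000709). Clec4a2, an inhibitory C-type lectin, went from 73.2 and 74.1 to 393.3 and 665.6 (2.37 ± 0.34, adjusted p = 0.0149), with RANKL replicate 2 brighter by 1.64-fold. Itgax, the CD11c integrin chain of dendritic cells and some macrophages, went from 301.1 and 352.0 to 1297 and 1744 (2.10 ± 0.29, adjusted p = 0.0116). Matk, a kinase that restrains Src family kinases, went from 129.2 and 150.6 to 482.6 and 856.8 (1.98 ± 0.32, adjusted p = 0.0281). Its RANKL arrays were 1.73-fold apart, the widest gap among the risen genes. Ptpn22, a phosphatase of immune cell kinases, went from 1664 and 1623 to 4966 and 5834 (1.69 ± 0.22, adjusted p = 0.00809).

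Of 8 represented dendritic cell markers Itgax rose and 0 fell, against 0.291% and 0.0364% of represented genes. The summed signal of the 8 was 1872.7 and 1822.5 in control cells and 2963.4 and 3624.1 in RANKL cells, of which Itgax supplies the larger part of the difference. The costimulatory genes Cd86 (10.0 and 26.6 against 54.3 and 94.8) and Cd80 (44.9 and 41.3 against 76.0 and 81.3) were under 100 on the 4 arrays. The class II gene H2-Ab1 had 104.0 and 111.3 against 38.8 and 28.3 (-1.09 ± 0.29, adjusted p = 0.252), and Flt3 had 309.4 and 371.0 against 331.8 and 354.0.

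Genes of adhesion and the actin cytoskeleton, which osteoclasts use to build the ring of podosomes around the resorption site, gave 3 rises and 0 falls among 42 represented, against 0.291% and 0.0364% of represented genes. Besides Itgav these were Dock5 and Actn1. Dock5, an activator of the GTPase Rac, went from 324.1 and 459.5 to 1341 and 1862 (1.95 ± 0.27, adjusted p = 0.0122), and is also the 1 gene of 25 in the list of cell fusion and tetraspanins that rose. Actn1, an actin cross-linker, went from 2485 and 2153 to 4146 and 5302 (1.01 ± 0.16, adjusted p = 0.0286). A second probe set of Actn1 had 437.4 and 627.0 against 1884 and 1298, and another had a change of 0.01 with RANKL arrays of 321.7 and 1334 on either side of the controls. The list had 25 positive changes, against 46.9% of represented genes, and a median of 0.20, and the RANKL arrays lay above both controls in 18 of 42, against 17.9%. Evl, an actin polymerisation factor, stood on the other side with 585.1 and 527.7 against 217.5 and 229.4 (-1.20 ± 0.38, adjusted p = 0.381). The osteoclast integrin chain Itgb3 was dim, with signals of 11.3 to 31.2, as was the calcitonin receptor Calcr, with 1.8 to 5.2, and neither gives a usable change here.

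Pip5k1b, a kinase that makes the lipid PIP2, was among the most repeatable rises, from 463.5 and 480.2 to 1434 and 1480 (1.56 ± 0.17, adjusted p = 0.0017). Pstpip1, an adaptor that links membranes to actin, went from 1466 and 1203 to 3292 and 4260 (1.47 ± 0.25, adjusted p = 0.0352). A second probe set of Pstpip1 had 326.1 and 314.6 against 604.9 and 1242. The Pstpip1 call was lost in 13 alternatives, while its change stayed positive in each.

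The other 5 risen genes belong to no list. Ndrg4, of the NDRG family, went from 811.5 and 880.7 to 2911 and 3079 (1.79 ± 0.16, adjusted p = 0.000373), and its RANKL arrays were 1.06-fold apart. Abcb4, a phospholipid transporter, went from 444.8 and 530.4 to 1470 and 2161 (1.81 ± 0.25, adjusted p = 0.0116). Dap, a proline-rich protein linked to autophagy, went from 3286 and 3055 to 7087 and 7758 (1.22 ± 0.18, adjusted p = 0.0142). Rnf19b, a ubiquitin ligase, went from 647.9 and 610.5 to 1524 and 1347 (1.15 ± 0.17, adjusted p = 0.0158). Cpe, a carboxypeptidase that trims prohormones, was at 5.6 and 3.6 in control cells and 56.7 and 92.2 in RANKL cells (1.52 ± 0.25, adjusted p = 0.0316). Cpe stays under a signal of 100 on the 4 arrays, so its fold is set largely by the constant of 32.

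The 3 genes that fell were Ctsc, Ppfia4 and Rnase4, and whether they share a function was not tested. Ctsc, the protease that activates granule serine proteases, went from 1179 and 1458 to 337.6 and 397.4, 3.37-fold lower (-1.75 ± 0.23, adjusted p = 0.00866); a probe set of it at 5.8 to 22.3 had a change of 0.11. Ppfia4, a liprin scaffold protein, went from 216.1 and 224.2 to 36.1 and 32.6 (-1.93 ± 0.31, adjusted p = 0.0286). Rnase4, a secreted ribonuclease, went from 141.0 and 172.7 to 35.0 and 6.5 (-1.89 ± 0.32, adjusted p = 0.0372), and its call was lost in 15 alternatives. Ppfia4 and Rnase4 were both below 100 in the RANKL arrays.

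Further falls appeared in probe sets that do not represent their gene, and these genes were named after their values were seen. A probe set of the growth factor Igf1 went from 1504 and 1547 to 236.9 and 190.0 (-2.67 ± 0.20, adjusted p = 8.96e-05). The probe set that represents Igf1 had 904.2 and 1002 against 663.8 and 607.3 (-0.56), so the probe sets of Igf1 share a sign and differ in size. For Csf3r, the G-CSF receptor, a probe set went from 178.1 and 167.3 to 32.9 and 29.9 (-1.69), while the one that represents the gene had a change of 0.64 and another one of -1.43. The direction for Csf3r is therefore not settled. The 2 called probe sets without a gene name and the 1 with several names are not described.

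The largest negative changes that did not pass included several genes of myeloid cells. Saa3, an acute-phase protein, had 1522 and 1377 in control cells against 179.5 and 174.6 in RANKL cells (-2.82 ± 0.58, adjusted p = 0.112). Within the groups the arrays were close, and the standard error comes from the pooled spread over the 9 groups. Ms4a6c, a macrophage membrane protein, had 727.1 and 884.0 against 241.6 and 125.0 (-2.01 ± 0.40, adjusted p = 0.0958). Dab2, an endocytic adaptor, had 2142 and 1989 against 1160 and 389.7 (-1.56 ± 0.40, adjusted p = 0.239), and Fcgr1, the high-affinity IgG receptor, had 1143 and 925.0 against 553.0 and 133.7 (-1.77 ± 0.58, adjusted p = 0.398). In Dab2 and Fcgr1 most of the difference was in RANKL replicate 2. On the positive side, Ifi202b, an interferon-inducible DNA sensor, had 217.7 and 388.3 against 861.2 and 1338 (1.77 ± 0.34, adjusted p = 0.0736), and Il1rn, the interleukin-1 receptor antagonist, had 1354 and 754.4 against 2536 and 3525 (1.53 ± 0.41, adjusted p = 0.252). Prp2 (-2.05), St3gal6 (-1.51), Tmem176a (-1.50), Selenbp1 (-1.50), Fabp7 (1.59), H3c14 (1.54) and Pdcd4 (1.41) complete the genes with large changes that missed the threshold.

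Macrophage markers were more often lower than higher in RANKL cells. Of 28 represented, Itgax rose and 0 fell, against 0.291% and 0.0364% of represented genes. At an unadjusted limma p under 0.05, 1 was higher and 8 lower, against 4.39% and 4.87%. Negative changes numbered 21, against 53.1% of represented genes, both RANKL arrays lay below both controls in 13, against 21.1%, and the median was -0.17. Their summed signal, to which bright genes contribute most, was 93028.8 and 92843.8 in control cells and 87033.8 and 91752.8 in RANKL cells. Csf1r, the M-CSF receptor, had 11608 and 11633 against 9776 and 10956 (-0.17 ± 0.20, adjusted p = 0.933). Negative changes among members of the innate response were larger: Cybb, the NADPH oxidase core, had 2208 and 2907 against 1458 and 712.4 (-1.28 ± 0.55), C3ar1 had 1346 and 1594 against 785.2 and 452.9 (-1.25 ± 0.40) and C5ar1 had 1364 and 1366 against 908.7 and 488.3 (-0.998 ± 0.29), none past the threshold.

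Interferon-response genes were mostly lower in RANKL cells, none past the threshold. Of 32 represented, 0 passed in limma, with 0 higher and 12 lower at an unadjusted p under 0.05, against 4.39% and 4.87% of represented genes. Changes were negative in 27, against 53.1% of represented genes, and the median was -0.51. Irf7, which amplifies the type I interferon response, had 1038 and 377.7 against 438.8 and 82.0 (-1.51 ± 0.73, adjusted p = 0.653), so its groups overlap. Isg15, a ubiquitin-like protein, had 921.7 and 397.6 against 343.5 and 120.8 (-1.42 ± 0.51, adjusted p = 0.459), and Usp18, which removes it, had 1473 and 732.9 against 590.1 and 302.0 (-1.23 ± 0.53, adjusted p = 0.584). Ifi47, an immunity-related GTPase, had 201.5 and 149.4 against 70.3 and 15.5 (-1.56 ± 0.43, adjusted p = 0.296). In each of these 4 genes control replicate 1 was above control replicate 2 and RANKL replicate 1 was above RANKL replicate 2. Of 22 antigen presentation genes 0 passed, with 1 higher and 5 lower on the same measure, and the median was -0.36. Tap1, the peptide transporter, had 1330 and 861.6 against 682.2 and 380.5 (-1.02 ± 0.27, adjusted p = 0.252), and Psmb8, an immunoproteasome subunit, had 2785 and 2454 against 2048 and 973.5 (-0.87 ± 0.27, adjusted p = 0.361).

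Genes of the cell cycle were mostly a little lower in RANKL cells, and 0 passed in limma. Over represented genes, 53.1% had negative changes, and 4.39% were higher and 4.87% lower at an unadjusted p under 0.05. Of 38 DNA replication genes 32 had negative changes, with 0 higher and 6 lower on that measure and a median of -0.23. Of 34 mitosis genes 26 had negative changes, with 0 higher and 5 lower on that measure and a median of -0.34, and of 19 cell cycle brakes 15 were negative, with 0 and 3 and a median of -0.29. The helicase subunit Mcm3 had 2152 and 2082 against 1470 and 1158 (-0.68 ± 0.21), the GTPase regulator Racgap1 had 564.3 and 579.5 against 260.3 and 400.0 (-0.76 ± 0.22), and the CDK inhibitor Cdkn2d had 922.8 and 871.2 against 586.3 and 436.1 (-0.79 ± 0.20). The proliferation marker Mki67 had 405.6 and 904.3 against 487.6 and 985.3 (0.18 ± 0.40), with groups that overlap, and its sign turned without control replicate 1 (-0.37) or without RANKL replicate 2 (-0.30).

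Lists of metabolism, inflammation and stress had medians near that of all genes. The 52 genes of oxidative phosphorylation had a median of 0.08 and the 26 of the TCA cycle 0.10, with 0 past the threshold in limma. At an unadjusted limma p under 0.05, 2 and 1 were higher and 0 and 1 lower. Over represented genes, 4.39% were higher and 4.87% lower on that measure. Eno3, an enolase of glycolysis, had 689.9 and 667.0 against 1712 and 1828 (1.34 ± 0.31, adjusted p = 0.176) in a list with a median of -0.06. The 22 ribosomal protein genes had 18 positive changes, against 46.9% of represented genes, and a median of 0.28, which was 0.04 after quantile normalization. The 15 genes of the iron list had 8 positive and 7 negative changes, from -0.85 to 0.87, and a median of 0.02. The highest was Tfrc, the transferrin receptor, with 1373 and 1717 against 2645 and 3020 (0.87 ± 0.28, adjusted p = 0.379). Of 37 inflammatory mediators Ccr1 rose and 0 fell, against 0.291% and 0.0364% of represented genes, and the median was 0.04. Plau, the urokinase, had 334.9 and 384.4 against 596.2 and 1354 (1.26, adjusted p = 0.252). Of 32 stress genes 21 had negative changes, against 53.1% of represented genes, and the median was -0.12. The highest of them was Hsp90aa1, with 2910 and 3367 against 5050 and 6118 (0.82 ± 0.18, adjusted p = 0.145). Ddit4, Dnajb9, Hspa1b and Atf3 were lower, none past the threshold, and the lowest change in the list was -1.09.

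**Figure D2:**
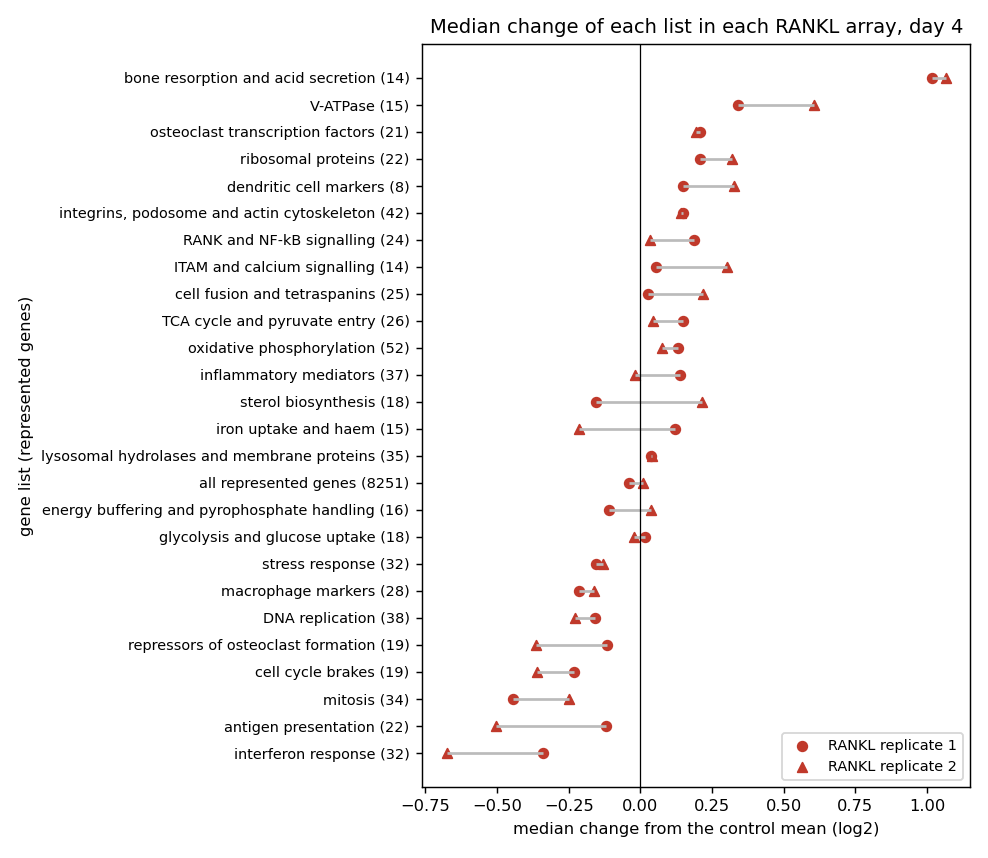
Median change (RANKL array minus the control mean, log2 of signal + 32) of each gene list, with the number of represented genes in brackets, for RANKL replicate 1 (circles) and replicate 2 (triangles) of day 4. Bone resorption stands apart at 1.02 and 1.06, and all represented genes are at -0.04 and 0.01. The interferon response, at -0.34 and -0.67, lies lowest in replicate 2. Mitosis, at -0.45 and -0.25, lies lowest in replicate 1.

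Markers of cell types foreign to the line were low and were not past the threshold. The summed signal ran from 1325.6 to 1757.4 for 8 stromal and osteoblast genes, 348.9 to 444.0 for 7 T cell genes, 416.7 to 659.8 for 6 B cell genes, 390.2 to 493.1 for 8 neutrophil genes and 234.9 to 383.0 for 5 erythroid genes. Of these lists, 6, 5, 2, 6 and 4 genes were under 100 on the 4 arrays. Col1a2 supplied most of the stromal sum, with 995.6 and 1241 in control cells against 982.7 and 1033 in RANKL cells. The T cell gene Cd3e, the neutrophil gene S100a8 and the stromal gene Sparc were under 100 throughout.

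The RANKL replicates of day 4 were less alike than the control replicates of day 4. Across the 12422 probe sets, 517 differed by more than 1 on the log2 scale between the RANKL arrays of day 4, 194 higher in replicate 1 and 323 in replicate 2, against 252 between the control arrays of day 4. After quantile normalization the RANKL count was 458, with 240 higher in replicate 1, so the split between the arrays turns with the scaling. Other pairs of arrays gave 382 to 524, so the RANKL pair of day 4 is within their range and the control pair of day 4 is the closest over all probe sets. In the upper 50% of probe sets by signal, 200 differed between the RANKL arrays and 101 between the controls, and the control pair of day 2 was closer, with 82. The correlation across probe sets, which are not independent, was 0.976 and 0.984. These differences have no replicates and no test.

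None of the 27 genes past the threshold differed by more than 1 between the RANKL arrays, against 1.61% and 2.28% of represented genes that did so upward and downward. The threshold itself favours genes with close replicates. The widest gaps were 0.79 for Matk, with replicate 2 the higher, and 0.80 for Rnase4, with replicate 1 the higher. The change was larger in replicate 2 for 22 of 24 risen genes, all but Chchd10 and Rnf19b, with medians of 1.64 in replicate 1 and 1.93 in replicate 2; over represented genes, replicate 2 was above replicate 1 in 55%. Resorption genes as a list followed, with 12 of 14 higher in replicate 2 and a median gap of -0.39 (replicate 1 minus 2), and so did 13 of 15 V-ATPase subunits (-0.25). In the control pair, replicate 1 was the higher in 9 of 14 and 7 of 15 of these genes.

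**Figure D3:**
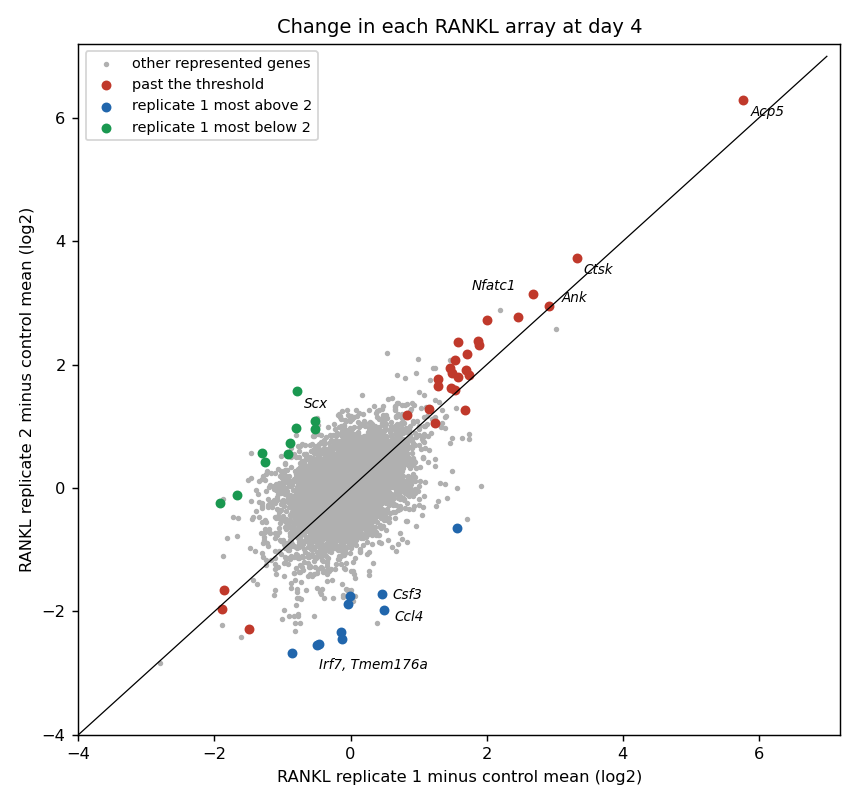
Change of each represented gene from the control mean (log2 of signal + 32) in RANKL replicate 1 (horizontal) and RANKL replicate 2 (vertical) of day 4; the line marks equal change, red points are the 27 genes past the threshold, and blue and green points are the 10 genes of the brighter 50% furthest apart in each direction. Most red points lie slightly above the line on the right, while Ccl4, Csf3, Irf7 and Tmem176a lie far below it.

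The 10 genes furthest apart in the direction of replicate 1 were Ccl4, Fam220a, Zbtb17, Acod1, Csf3, Tmem176a, Irf7, Tcn2, Fcgr1 and Akr1c13. Ccl4, a chemokine of activated macrophages, had 2275 and 1635 in control cells and 2714 and 464.0 in RANKL cells, so replicate 1 lay above both controls and replicate 2 below them (gap 2.47). Csf3, the granulocyte growth factor, had 1636 and 1255 against 1988 and 413.7 (gap 2.18) in the same arrangement. Acod1, the enzyme that makes itaconate, had 2690 and 1866 against 2033 and 419.8 (gap 2.19), with replicate 1 between the controls. Tnf, which was outside the 10, had 2755 and 2416 against 4214 and 1367, and its change of -0.10 ± 0.56 became 0.70 without replicate 2. For these genes the mean of the RANKL arrays describes neither array.

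Of the others, Tcn2, Akr1c13, Fam220a and Irf7 were near or within the range of the controls in replicate 1 and well below it in replicate 2. Tcn2, the vitamin B12 carrier, had 670.5 and 938.4 against 772.8 and 192.0 (gap 1.85). Akr1c13 had 213.2 and 203.9 against 207.0 and 39.2 (gap 1.75), and Fam220a had 340.8 and 369.7 against 321.3 and 38.8 (gap 2.32), while a second probe set of Fam220a had 123.6 and 97.6 in RANKL cells (gap 0.26). Tmem176a, a membrane protein of myeloid cells, was below both controls on both arrays, with 1036 and 1197 against 795.3 and 166.2 (gap 2.06), as was Fcgr1 (gap 1.82). Irf7 (gap 2.05) had replicate 1 between its controls, which were themselves 1.38 apart, and a second probe set of Irf7 had 228.7 and 184.0 in RANKL cells (gap 0.27). Zbtb17 had 283.3 and 80.1 against 524.5 and 88.0, with replicate 1 above both controls and replicate 2 between them. Its gap was 2.21, beside one of 1.49 between its controls.

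In the other direction the 10 genes were Scx, Adcy3, Akap8, Kcnn1, Mtf1, Colq, Tspan9, Rnf7, Mphosph10 and Ssb. Scx, a tendon transcription factor, had 495.2 and 39.1 in control cells against 80.1 and 542.5, so its controls were further apart (gap 2.89) than its RANKL arrays (gap -2.36), and in the opposite order. Rnf7 had 446.1 and 407.3 against 112.0 and 393.7, and Kcnn1 had 226.3 and 291.8 against 44.3 and 214.0, with replicate 2 at or near the control level.

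The list of inflammatory mediators did not follow Ccl4, Csf3 and Tnf: replicate 1 was the higher RANKL array in 20 of 37, with a median gap of 0.03. Replicate 1 was the higher RANKL array in 23 of 32 interferon-response genes (median gap 0.32) and in 16 of 22 antigen presentation genes (0.37), against 45% of represented genes. For the interferon list the control arrays were ordered the same way, with replicate 1 higher in 21 of 32 (median gap 0.29), and for antigen presentation in 13 of 22 (0.07). Sterol biosynthesis genes ran the other way, with replicate 2 the higher array in 17 of 18 (median gap -0.45), while control replicate 1 was the higher in 12 of 18. Hmgcs1, an early enzyme of that route, had 423.7 and 762.7 against 515.2 and 1078, and Idi1 had 254.1 and 585.5 against 552.1 and 1029, both with control replicate 2 above replicate 1 as well. Mitosis genes were higher in replicate 2 in 26 of 34, as in the controls, where replicate 1 was the higher in 5 of 34.

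At day 5 several of these genes were apart in the RANKL pair in the same sense. Ccl4 had 2205 and 190.0 in RANKL cells at day 5 against 12019 in the 1 control array of that day, Csf3 had 685.4 and 212.0 against 2988, and Fcgr1 had 359.9 and 89.7 against 2048. Tmem176a at 64.7 and 151.1 and Irf7 at 181.8 and 314.6 had replicate 2 as the higher array at day 5. The numbers of the replicates name arrays, and the labels do not say that they tie day 4 to day 5. In Ccl4 and Csf3, both day 5 arrays lay below their control, as replicate 2 did at day 4.

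**Figure D4:**
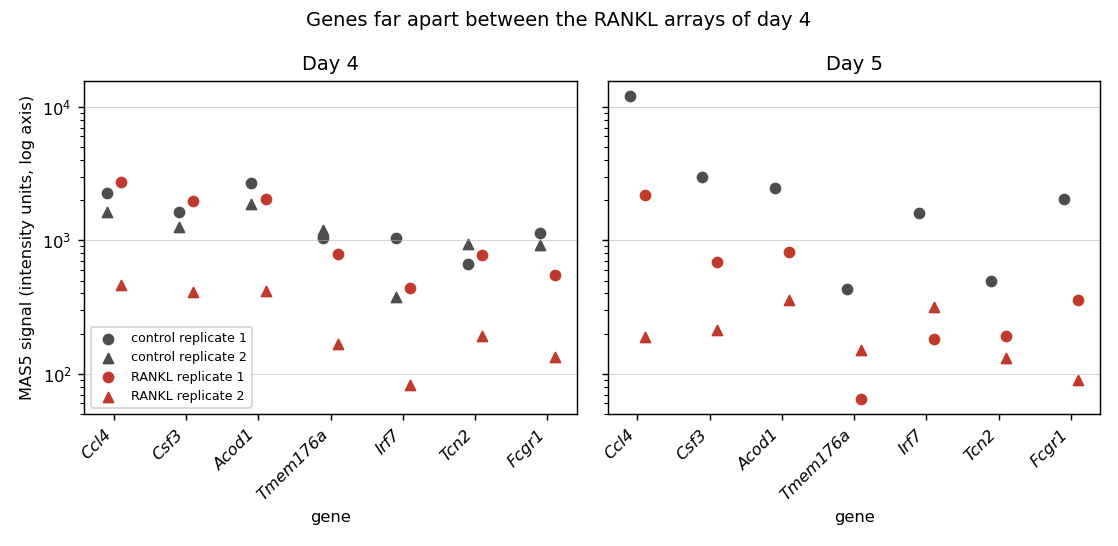
MAS5 signals (intensity units, log axis) of 7 genes far apart between the RANKL arrays of day 4, at day 4 (left) and day 5 (right), for control (grey) and RANKL (red) arrays, with circles for replicate 1 and triangles for replicate 2; day 5 has 1 control array. At day 4 replicate 2 lies below both controls for each gene, while at day 5 both RANKL arrays lie below the control.

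Each RANKL array of day 4 was also placed along the RANKL difference of days 2 and 5. On a scale where 0 is no RANKL difference and 1 is the size of the day 5 difference over all probe sets, replicate 1 stood at 0.03 and replicate 2 at 0.29. The day 5 difference rests on 1 control array. On the day 2 difference they stood at 0.15 and 0.24. On the line from RANKL cells of day 2 (0) to RANKL cells of day 5 (1) they stood close together, at 0.88 and 0.93. That line holds no control arrays, so RANKL and time in culture cannot be told apart on it. Replicate 1 had 332 probe sets more than 1 from the control mean (124 above, 208 below) and replicate 2 had 459 (214 above, 245 below). Replicate 2 was the array with the larger RANKL difference on the day 2 and day 5 scales and by the number of probe sets, and no test applies to 1 array against 1.

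The genes that rose at day 4 were then followed at day 2 (2 arrays against 2) and day 5 (2 against 1), comparisons whose groups share no array with those of day 4, although the fit pools the spread of all groups. Of the 24, 20 were positive at day 2 and 9 of them past the threshold; 23 were positive at day 5 and 14 past it. Over represented genes, 50.1% were positive at day 2 and 60.9% at day 5, and 0.364% and 0.703% rose. The median change of the 24 was 0.64 at day 2, 1.80 at day 4 and 1.47 at day 5, and the day 4 value is the one the genes were chosen on. Both RANKL arrays of day 4 lay above the 5 control arrays of days 3 to 5 for 23 of the 24, all but Ptpn22. They lay above the 8 control arrays of the series for 21, all but Id3, Nfatc1 and Ptpn22. Nfatc1 had control signals of 4410 at day 1 and 2134 and 861.1 at day 2. Id3 had control signals of 922.4 at day 1 and 1697 and 1677 at day 2, and RANKL signals of 995.1 and 1034 at day 2.

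For some genes the change was larger at day 5 than at day 4. Ctsk went from 2.14 ± 0.26 at day 2 through 3.53 at day 4 to 5.19 ± 0.31 at day 5, Itgav from 0.12 ± 0.23 through 1.70 to 3.24 ± 0.28 and Chchd10 from 1.93 ± 0.25 through 1.47 to 3.26 ± 0.31. Itgav signals in control cells were 3980 and 3738 at day 2, 1239 and 1920 at day 4 and 655.6 at day 5. In RANKL cells they were 4530 and 3910 at day 2, 4296 and 6045 at day 4 and 5694 and 7338 at day 5. For other genes the change was largest at day 4. Egr2 had 0.06 ± 0.22, 2.13 and 1.47 ± 0.27, Itgax had -0.66 ± 0.29, 2.10 and 1.35 ± 0.35, and Id3 had -0.72 ± 0.27, 1.55 and -0.19 ± 0.33. For Ptpn22 the day 5 change was 0.00 ± 0.27, with a control signal of 5608 at day 5 against 1664 and 1623 at day 4, and RANKL signals of 5296 and 5940. None of these differences between days passed the threshold as a difference, apart from that of Ank below. The 3 fallen genes were lower at day 2 as well, with 3 of 3 past the threshold, where 49.9% of represented genes were lower and 0.63% fell. At day 5 they were lower too, and Rnase4 was past the threshold, where 39.1% were lower and 0.509% fell.

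**Figure D5:**
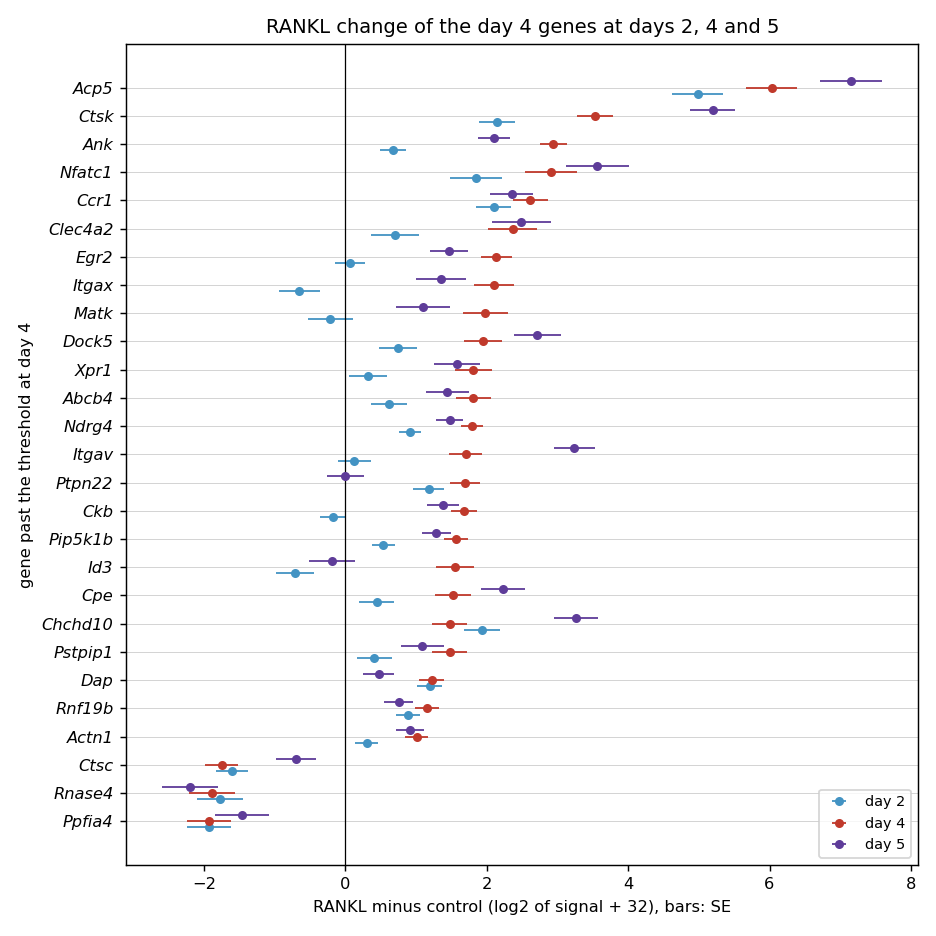
RANKL minus control change (log2 of signal + 32) of the 27 genes past the threshold at day 4, at day 2 (blue), day 4 (red) and day 5 (purple), with bars of 1 standard error; genes are in the order of their day 4 change. Acp5 and Ctsk are above 2 on each day, Id3 is above 0 at day 4 alone, and Ctsc, Rnase4 and Ppfia4 are below 0 on each day.

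Of 12422 probe sets, 1 (0.00805%) had a day 4 change that differed from its day 2 change past the threshold in limma, with 924 (7.44%) at an unadjusted p under 0.05. It was Ank, whose control signals were 5740 and 4823 at day 2 and 1449 and 1783 at day 4, while RANKL cells had 9447 and 7511 at day 2 and 12410 and 12694 at day 4 (difference 2.26 ± 0.27, adjusted p = 0.0344). The lower control level at day 4 made up the larger part of the Ank difference. Between day 5 and day 4, 1 probe set (0.00805%) differed, with 1230 (9.9%) at an unadjusted p under 0.05. It was Ccl2, a monocyte chemokine, with 710.1 and 577.3 in control cells and 1723 and 1285 in RANKL cells at day 4, and 4786 in the control against 891.0 and 1326 in RANKL cells at day 5 (difference -3.28 ± 0.39, adjusted p = 0.0388). The Ccl2 signal differed more between days in control cells than in RANKL cells. In limma 0 probe sets passed in 13 of 22 alternatives of the day 4 and day 2 comparison, with 666 to 1149 at an unadjusted p under 0.05, and in 14 of 21 of the day 5 and day 4 comparison, with 947 to 1576.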

How the data were processed

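The day 4 comparison was of 4 of the 15 arrays (RAW264.7 cells, day 4, 2 RANKL and 2 control). All 15 arrays were read and entered the fit, which took its estimate of spread from them. The values are MAS5 signal intensities that the authors deposited, with MAS5 named per the submitters' processing notes and no version given. The trimmed mean without the outer 2% was 500 on each of the 4 arrays of day 4, so their totals are set by scaling. Background correction and summarising of probes were done before deposit and not repeated. Of 12488 probe sets, 66 controls were left out, and of the 12422 tested 10833 had 1 gene name, 396 several and 1193 none; 10817 matched the RefSeq table.

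log2(signal + 32) was fitted with limma 3.58.1 (R 4.3.3; lmFit, eBayes with an intensity trend) over the 9 groups, which share 1 estimate of spread; 3 groups have 1 array. Python 3.11.15 with pandas 2.3.3 and numpy 2.4.6 did the rest. Adjusted p-values are two-sided limma values after Benjamini-Hochberg over all probe sets tested. The number of arrays limits precision: an exact permutation test of 2 against 2 cannot go below 0.333. A gene is represented by its probe set of highest mean log2 value. The fit was tested on simulated data.

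The comparison, the 30 gene lists (633 of 784 genes represented) and the tests were chosen with earlier results of these data known. Named were each represented gene past the threshold; the 8 largest positive and 8 negative changes not past it, with groups that do not overlap and a group mean signal of 200 or more; each list's members past it and up to 4 others; 14 panel genes; up to 5 genes of each sign whose change differed between days; and the 10 genes of each sign furthest apart between RANKL arrays in the upper 50%. Genes outside this rule were chosen after their values were seen. Alternatives were other constants (1 and 100), quantile normalization, the upper 50%, no trend, a replicate block, the groups of the contrast alone, each array left out, and a control mean of days 3 and 4. Promoters are the 250 bases before RefSeq starts (GRCm38.p6).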

Additional observations from a re-analysis of the deposited data

Results flagged for a closer look

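Ank and Ccl2 had RANKL changes that differed between days in limma. For Ank the day 4 change exceeded that of day 2 by 2.26 ± 0.27 (adjusted p = 0.0344), and for Ccl2 the day 5 change lay below that of day 4 (difference -3.28 ± 0.39, adjusted p = 0.0388), with 1 control array at day 5.

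In 7 more genes each RANKL array lay on one side of the controls at day 4 and on the other side at another day, and the difference between days, fitted in limma, was not past the threshold. At day 2 the change was -0.72 for Id3 (difference 2.27, adjusted p = 0.196), -0.66 for Itgax (2.76, adjusted p = 0.0851), -0.22 for Matk (2.19, adjusted p = 0.336) and -0.49 for Ifi202b (2.27, adjusted p = 0.336). It was -1.52 for Fabp7, a fatty acid binding protein, and -0.54 for Id2 at day 2. Il1rn had a day 5 change of -1.09 (difference -2.62, adjusted p = 0.351).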

How the results depend on the processing

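At day 4, 33 probe sets passed the threshold in limma. The count was 65 with the control taken as the mean of days 3 and 4, 15 with the groups of the contrast alone, and 9 to 54 when each array was left out in turn; 28 to 43 passed in the other alternatives. Correlations of replicate differences ran from -0.17 to 0.12 over 15 pairs of groups, and the highest was that of RANKL and control cells of day 4. Whether replicate numbers pair the samples is not stated in the labels, and these values do not settle it. With a replicate block 28 passed. Of the 27 genes, 7 were past the threshold in every alternative, 12 were lost in 1 to 5, 4 in 6 to 10 and 4 in over 10, and 0 reversed; of 111 other named genes 17 passed in at least 1. For the day 4 and day 2 difference, 1 probe set passed, against 0 with quantile normalization, no trend or a replicate block, 5 in the upper 50%, 3 with the groups of the contrast alone and 0 to 4 with an array left out. For the day 5 and day 4 difference, 1 passed, against 3 with a constant of 1, 2 in the upper 50%, 0 with quantile normalization, no trend, a replicate block or the groups of the contrast alone, and 0 to 29 with an array left out (29 without RANKL replicate 1 of day 5). In these settings with 0, limma gave 666 to 1149 and 947 to 1576 probe sets at an unadjusted p under 0.05. The 517 probe sets apart between the RANKL arrays became 2171 with a constant of 1, 141 with 100 and 200 in the upper 50%. On the day 2 axis replicate 2 stood at 0.17 with a constant of 1 and 0.31 in the upper 50%. From day 2 to day 5, replicate 1 stood at 0.77 with a constant of 1, 0.94 with 100, 0.92 after quantile normalization and 0.99 in the upper 50%, and replicate 2 at 0.78 with a constant of 1, 1.00 with 100 and 1.05 in the upper 50%. The sign turned for Calcr (-0.029) and Itgb3 (-0.27) with the control mean of days 3 and 4. With arrays of day 4 left out, the change ran from -0.0428 to 0.0949 for Calcr, -0.027 to 0.5014 for Itgb3, -0.37 to 0.7326 for Mki67, -0.9012 to 0.701 for Tnf and -1.7546 to 0.0624 for Cp; the sign turned without RANKL replicate 2 for each of the 5 (Mki67 -0.30), and without control replicate 1 for Mki67. The causes were not tested. Calcr and Itgb3 are dim, which limits what their signals can show.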
